A study of Mus musculus with 77 samples.

Results

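Transfer RNA (tRNA) loci of the isotypes aspartate (Asp), glycine (Gly), glutamate (Glu), valine (Val), histidine (His) and lysine (Lys) were followed through input and pull-down libraries of mouse liver, plasma, VsWAT, GAS and kidney. A locus was taken where its row name marks it as a nuclear tRNA and ends in one of these 6 isotypes with its anticodon. This gave 130 of the 435 nuclear tRNA loci and of the 55273 features counted. They fall into 15 anticodon families, with 16 loci of Asp, 21 of Glu, 29 of Gly, 11 of His, 30 of Lys and 23 of Val. Of the 130 loci, 109 had a count in some library and 21 had none.

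The mice were males aged 12 weeks on HFD or LFD, a diet high or low in fat, for 2 weeks. All groups share one strain background, FVB.129P2, with the targeted allele Cyp3a13tm1Ahs, the deletion Del(5Cyp3a57-Cyp3a59)1Ahs and the transgene Tg(APOE-CYP3A4)A1Ahs, which places the human drug-metabolising enzyme CYP3A4 under APOE sequences. In each diet the groups are pull-down and input libraries of plasma, VsWAT, GAS and liver small RNA, and of kidney and liver mRNA. These 24 groups hold 65 libraries, 17 groups with 3 and 7 with 2. The series title names iTag labelling. The compound used as label, and how the labelled RNA was captured, are not given in the sources used here. VsWAT and GAS are the names the labels use. RNA came from spin-filtered plasma by Tri reagent BD and from frozen tissue by NucleoZOL. All libraries used the CATS kit for small RNA and single-end reads of 75 bp. The labels do not say whether replicates came from separate animals, so p-values measure the spread between these samples, which may be technical.

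tRNAs carry amino acids to the ribosome, each isotype its own amino acid, and several genes with near-identical sequences encode each isotype. Under stress, nucleases such as angiogenin cut mature tRNAs in the anticodon loop into long fragments, and shorter ones arise from either end. Fragments of Gly, Glu, Val, His, Lys and Asp tRNAs are among those most often described in mammalian cells and body fluids, and in mouse sperm they were reported to respond to the father's diet. The counts used here are whole reads per locus and cannot tell a fragment from a whole tRNA. How reads that match several like copies were handled is not given in the sources used here, so the count of a single locus is uncertain where copies are alike. The anticodon sums, which are given first, are less exposed to how reads were split between copies of a family. Reads dropped for matching several copies would be missing from the sums as well. In such bulk samples, fewer cells of a type and less RNA per cell cannot be told apart.

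Small RNA libraries held 221875 to 3608065 assigned counts, with the lowest totals in plasma. Nuclear tRNA made up 4.54% to 9.15% of the counts in plasma pull-downs and 6.53% to 16.9% in plasma inputs. In the tissues it made up 0.133% to 1.25% of the counts in pull-downs and 1.34% to 6.07% in inputs. Mitochondrial mRNA also moved with the pull-down, at 24.4% to 31.8% of counts in GAS pull-downs against 2.00% to 3.13% in GAS inputs, and 6.70% to 13.6% in liver pull-downs against 2.81% to 4.64% in liver inputs. Its part in the results was not tested. The 5 hepatocyte markers summed to 22520 to 48590 CPM (counts scaled to each library's assigned total) in liver inputs, the 5 adipocyte markers to 5994 to 7767 CPM in VsWAT inputs and the 5 skeletal muscle markers to 11720 to 21410 CPM in GAS inputs. The VsWAT inputs HFD 1, HFD 2 and LFD 1 stand apart with 642, 894 and 1063 CPM of Alb, the albumin gene of hepatocytes, against 108 to 262 CPM in the other 3, and HFD 1 and HFD 2 differed from each other less than other small RNA pairs did (chi-square per degree of freedom 1.53).

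One aspartate locus, chr10.tRNA866-AspGTC, dominated the counts of these isotypes in every small RNA set. It held 98.3%, 95.2%, 97.5% and 98.3% of Asp counts in plasma, VsWAT, GAS and liver pull-downs, against 99.5%, 98.3%, 98.1% and 97.9% in the inputs of the same sources. The other 13 Asp loci with counts shared the rest. Its level was 8283, 23884, 12566 and 16243 CPM in the plasma pull-downs HFD 1, HFD 2, LFD 1 and LFD 2, against 33961, 17887, 22089 and 27811 CPM in the plasma inputs in the same order. These plasma values lay above those of every tissue library. In VsWAT the lowest, median and highest levels were 313, 1329 and 2776 CPM in pull-downs and 1747, 3768 and 5609 CPM in inputs, and in GAS they were 307, 522 and 1628 CPM in pull-downs and 1346, 2224 and 3782 CPM in inputs. Liver pull-downs held 498, 956 and 216 CPM under HFD and 678 and 1223 CPM under LFD, while liver inputs ranged from 1735 to 4478 CPM with a median of 3486 CPM. Pull-down and input did not overlap in liver, and overlapped in plasma, VsWAT and GAS.

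The share of nuclear tRNA counts held by the 6 isotypes was higher in pull-downs than in inputs of the 3 tissues, with no overlap. It was 33.7% to 43.8% in VsWAT pull-downs against 10.8% to 15.3% in VsWAT inputs, 29.1% to 37.1% in GAS pull-downs against 9.87% to 12.0% in GAS inputs, and 22.7% to 41.9% in liver pull-downs against 15.1% to 22.0% in liver inputs. In plasma the 4 pull-downs held 21.2%, 36.0%, 32.8% and 23.7% and the 4 inputs 54.0%, 18.8%, 15.8% and 35.6%, which overlap. The difference in tissues did not rest on chr10.tRNA866-AspGTC alone. Without it, the members made up 12.2% to 15.5% of the other tRNA counts in liver pull-downs against 6.86% to 8.14% in liver inputs, 15.7% to 24.3% against 4.14% to 6.19% in VsWAT, and 8.22% to 15.4% against 2.87% to 3.76% in GAS. Loci with a long variable arm took a larger share of the pull-downs in VsWAT too, at 14.7% to 22.3% in pull-downs against 9.02% to 13.0% in inputs. They overlapped in GAS (12.8% to 18.5% in pull-downs and 12.9% to 20.02% in inputs) and in liver (23.9% to 33.2% in pull-downs and 26.1% to 31.3% in inputs). These are shares of a tRNA pool that was itself a smaller part of the tissue pull-downs.

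**Figure D1:**
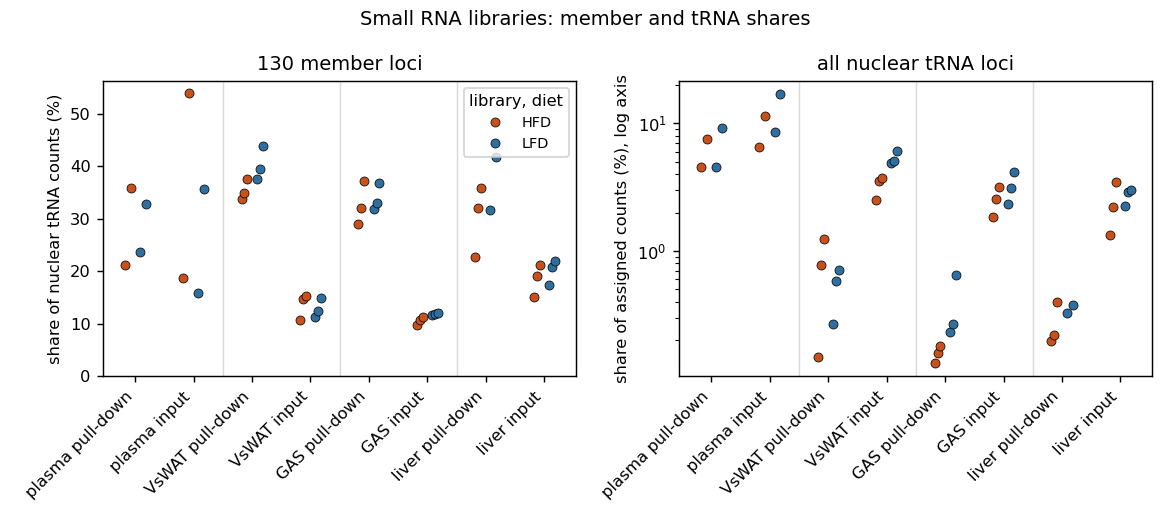
Share of nuclear tRNA counts held by Asp, Gly, Glu, Val, His and Lys loci, in percent, one point a small RNA library, with pull-down left of input for each source and the diets in colour. Tissue pull-downs sit above their inputs without overlap, while the 4 plasma pull-downs (21.2% to 36.0%) lie within the range of the 4 plasma inputs (15.8% to 54.0%).

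After Asp, the order of the isotypes differed between sources. In plasma inputs Val came next at 1691 ± 848 CPM (SD, n = 4), ahead of Gly at 559 ± 405 CPM, Lys at 378 ± 259 CPM, Glu at 221 ± 28.0 CPM and His at 86.5 ± 68.8 CPM. Val also came next in VsWAT inputs at 1312 ± 795 CPM (n = 6), above Gly at 251 ± 48.4 CPM and Glu at 199 ± 69.5 CPM, while Lys at 78.7 ± 19.96 CPM and His at 54.0 ± 14.0 CPM were lowest. In GAS inputs Val at 262 ± 151 CPM and Gly at 228 ± 26.2 CPM lay within their spread of each other, followed by Glu at 154 ± 26.8 CPM, Lys at 149 ± 23.6 CPM and His at 35.8 ± 6.26 CPM. Liver inputs differed, with Glu at 601 ± 254 CPM and Gly at 505 ± 192 CPM above Val at 272 ± 101 CPM, Lys at 104 ± 27.6 CPM and His at 93.6 ± 41.7 CPM. Many neighbours in these orders overlapped between libraries: Val and Gly, Gly and Lys, and Lys and Glu in plasma, Asp and Val, Gly and Glu, and Lys and His in VsWAT, Val and Gly, and Glu and Lys in GAS, and all neighbours below Asp in liver. In plasma input HFD 1, Glu at 257 CPM lay above Lys at 208 CPM and Gly at 171 CPM, against the order of the means.

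**Figure D2:**
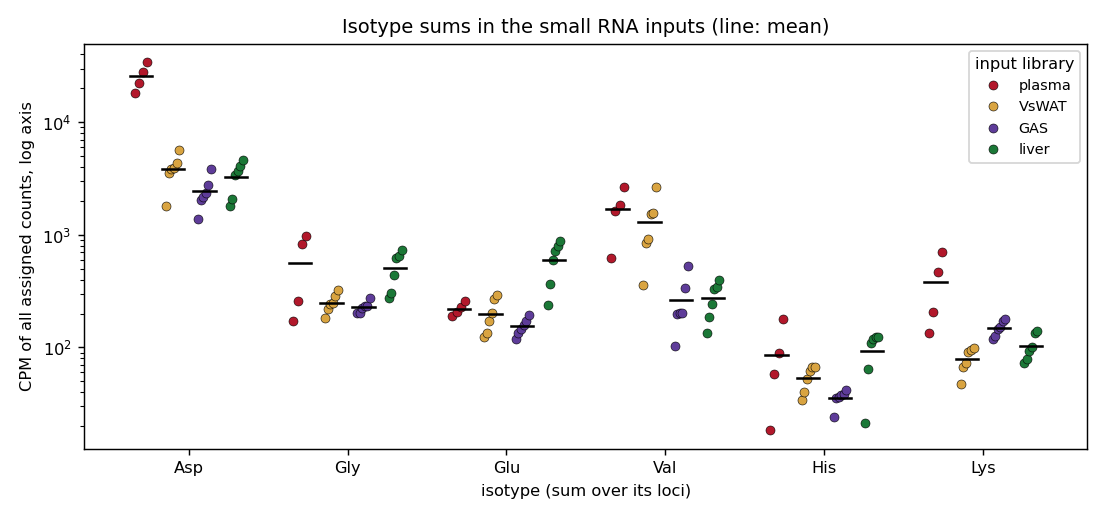
Summed level of each isotype in small RNA inputs, in CPM of all assigned counts on a log axis, one point a library, for plasma, VsWAT, GAS and liver. By their means Asp is highest in every source, Val is second in plasma (1691 CPM) and VsWAT (1312 CPM), and Glu is second in liver (601 CPM).

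Within the other isotypes the counts were spread over more loci. The locus with most counts was chr8.tRNA562-GlyGCC for Gly in the inputs of all 4 sources, at 84.8% of Gly counts in plasma, 55.0% in VsWAT, 57.7% in GAS and 68.0% in liver. For Val it was chr13.tRNA986-ValAAC, at 67.3% of Val counts in plasma inputs, 33.6% in VsWAT, 57.3% in GAS and 61.3% in liver. For Lys it was chr3.tRNA748-LysCTT, at 46.4%, 36.5%, 54.1% and 47.1% of Lys counts in the inputs of the same sources. No Glu locus held more than 23.7% of Glu counts in any set of inputs. Of the 130 loci, 34 could be matched one-to-one to a RefSeq tRNA gene of the same chromosome and anticodon (GRCm38.p6, the assembly of mm10). Of these, 24 overlap no other gene and 10 lie within one. Among those that recur here, chr2.tRNA511-AspGTC (n-TDgtc2, chr2:114103367-114103438) lies in Aqr, a splicing helicase gene, chr17.tRNA719-GluCTC (n-TEctc4, chr17:56092001-56092072) in Hdgfl2, and chrX.tRNA643-LysCTT (n-TKctt19, chrX:136195732-136195804) in the long noncoding gene Gm41901, while chr17.tRNA391-ValCAC (n-TVcac3, chr17:59068708-59068780) overlaps no gene.

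The inputs of plasma, VsWAT and GAS were each set against the same 6 liver inputs, which the 3 comparisons share. Changes are given on the log2 scale ± SE. They come from edgeR's quasi-likelihood test over all features after TMM scaling, and a result was called at a Benjamini-Hochberg adjusted p under 0.05. Levels beside them are CPM of all assigned counts, on which TMM scaling was not applied, so that the ratio of 2 levels can differ from the fold change.

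In plasma inputs, 9 of 13 tested families were higher than in liver and 1 was lower, with 58.4% of all features called in the table of anticodon sums. AspGTC averaged 25541 ± 6957 CPM in plasma and 3284 ± 1119 CPM in liver (SD, n = 4 and 6), a log2 fold change of 4.19 ± 0.51 (adjusted p = 3.3e-07), with no overlap. The Val families rose as well: ValCAC averaged 394 ± 225 CPM in plasma and 41.8 ± 17.5 CPM in liver (4.63 ± 0.48, adjusted p = 4.5e-08), and ValAAC 1177 ± 647 CPM in plasma and 174 ± 69.9 CPM in liver (4.15 ± 0.55, adjusted p = 1.1e-06). Neither overlapped between plasma and liver. HisATG (4.72 ± 0.74), LysCTT (3.37 ± 0.69), GlyCCC (3.17 ± 0.37), LysTTT (2.72 ± 0.33), GlyGCC (1.90 ± 0.62) and ValTAC (1.75 ± 0.43) were also higher. HisATG is 1 locus with 130 counts in total, and plasma inputs held 8 of them under HFD and 51 under LFD. GlyTCC was lower at 21.4 ± 13.9 CPM in plasma and 101 ± 35.8 CPM in liver (-1.23 ± 0.46, adjusted p = 0.029). GluCTC (0.27 ± 0.43), GluTTC (-1.25 ± 0.55, adjusted p = 0.058) and HisGTG (0.47 ± 0.50) were not called.

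By locus, 47 members passed the filter on low counts and 26 were higher and 10 lower in plasma than in liver, against 58.6% of all features called. All 9 tested Val loci and 6 of 7 Lys loci were higher, while Glu had 2 higher and 4 lower of 11, and His 2 higher and 4 lower of 6. The median over the members was 1.78 against -0.38 over all features, and it was 2.06 over the tRNA loci of the remaining isotypes. Among loci with a mean of at least 20 counts, the largest changes upward were chr13.tRNA98-ValCAC (6.66 ± 0.64, adjusted p = 2.95e-07), chrX.tRNA643-LysCTT (4.85 ± 1.31, adjusted p = 0.014) and chr10.tRNA866-AspGTC (4.20 ± 0.51, adjusted p = 5.7e-07). chr13.tRNA98-ValCAC held 125, 170, 396 and 148 CPM in plasma inputs, against a range of 0 to 9.98 CPM with a median of 5.75 CPM in liver inputs. chr2.tRNA1432-HisGTG and chr2.tRNA587-HisGTG had 3 counts each over the 4 plasma inputs, against 231 and 236 counts over the 6 liver inputs, and no fold is given for them. chr1.tRNA1555-GluTTC was lower, at 2.70 ± 3.15 CPM in plasma and 49.1 ± 21.7 CPM in liver (-2.83 ± 0.86, adjusted p = 0.015).

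Scaling by total counts moved the median of all features in plasma against liver to -1.47 and the members to 19 higher and 17 lower, and no called family changed direction. GlyGCC and ValTAC were then no longer called, and the GlyGCC call and that of chrX.tRNA643-LysCTT were also lost without plasma input HFD 2 or LFD 1 (adjusted p up to 0.31 and 0.097). The GlyTCC call was lost without liver input HFD 3 or LFD 3 or plasma input LFD 2 (adjusted p up to 0.073), and that of chr1.tRNA1555-GluTTC without plasma input LFD 2 (adjusted p = 0.057). Erythroid markers differed between these sources, their sum of 5 being 20580 to 43210 CPM in plasma inputs and 58.9 to 451 CPM in liver inputs, and hepatocyte markers summed to 3.60 to 97.8 CPM in plasma inputs. Their part in the result was not tested.

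In VsWAT inputs ValCAC and both Glu families went opposite ways relative to liver. Of 12 tested families 3 were higher and 7 lower, with 64.1% of all features called in the same table. ValCAC averaged 610 ± 309 CPM in VsWAT and 41.8 ± 17.5 CPM in liver (SD, n = 6 each), a log2 fold change of 2.91 ± 0.28 (adjusted p = 9.6e-09), with no overlap. ValAAC (0.87 ± 0.34, adjusted p = 0.033) and GlyCCC (0.84 ± 0.26, adjusted p = 0.0075) were higher too. GluTTC fell by 2.82 ± 0.37, at 82.2 ± 41.9 CPM in VsWAT and 281 ± 134 CPM in liver, and GluCTC fell by 2.38 ± 0.31, at 117 ± 32.2 CPM in VsWAT and 320 ± 123 CPM in liver (adjusted p = 1.8e-06 and 1.0e-06). GlyGCC (-2.04 ± 0.27), GlyTCC (-1.84 ± 0.35), ValTAC (-1.83 ± 0.24), HisGTG (-1.72 ± 0.35) and LysCTT (-1.50 ± 0.23) were lower, and AspGTC (-0.66 ± 0.31, adjusted p = 0.069) and LysTTT (-0.31 ± 0.29) were not called. The 7 lower families comprised every isotype except Asp.

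Among loci with a mean of at least 20 counts, the 3 largest called rises in VsWAT were Val loci of chromosome 13. That chromosome holds 22 of the member loci. chr13.tRNA98-ValCAC ranged from 85.2 to 772 CPM with a median of 416 CPM in VsWAT inputs, against 0 to 9.98 CPM with a median of 5.75 CPM in liver inputs (5.36 ± 0.42, adjusted p = 1.2e-09). chr13.tRNA95-ValAAC ranged from 30.9 to 532 CPM with a median of 202 CPM, against 0 to 4.43 CPM with a median of 0.857 CPM in liver (6.29 ± 0.50, adjusted p = 4.4e-09), and chr13.tRNA97-ValCAC from 93.2 to 181 CPM with a median of 120 CPM, against 0 to 9.15 CPM with a median of 2.18 CPM in liver (4.18 ± 0.30, adjusted p = 1.4e-10). None of these 3 loci overlapped between the sources, but they were chosen as the largest rises, so this is no separate support. The most abundant Val locus of liver, chr13.tRNA986-ValAAC, lies on the same chromosome. All 11 tested Glu loci were lower in VsWAT. Those with a mean of at least 20 counts were led by chr14.tRNA364-GluTTC (-3.05 ± 0.45), chr13.tRNA1013-GluCTC (-2.88 ± 0.37) and chr1.tRNA1555-GluTTC (-2.77 ± 0.34). In all, 6 of 40 tested members were higher and 28 lower, against 64.3% of all features called, with a median of -1.62 over members and 0.05 over all features. Other tRNA loci were lower too, with medians of -1.29 over loci with a long variable arm and -1.18 over the remaining tRNA loci. Under total-count scaling the median of all features was 0.92, with 9 members higher and 22 lower. The ValAAC call was lost when any 1 of 8 single libraries was left out (adjusted p up to 0.12), and it and the GlyCCC call were the only ones of these families lost under any alternative run.

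In GAS inputs both Glu families were again lower than in liver. Of 12 tested families 2 were higher and 6 lower, with 63.7% of all features called. GluCTC averaged 78.9 ± 17.9 CPM in GAS and 320 ± 123 CPM in liver (-1.99 ± 0.29, adjusted p = 2.9e-06), and GluTTC 74.8 ± 14.7 CPM in GAS and 281 ± 134 CPM in liver (-1.86 ± 0.35, adjusted p = 0.00011), both without overlap. HisGTG (-1.36 ± 0.33), GlyGCC (-1.11 ± 0.27), GlyTCC (-0.99 ± 0.29) and ValTAC (-0.81 ± 0.23) were lower as well. GlyCCC (0.78 ± 0.27) and LysCTT (0.63 ± 0.23) were higher, and AspGTC (-0.37 ± 0.27), LysTTT (0.41 ± 0.26), ValAAC (0.01 ± 0.27) and ValCAC (0.28 ± 0.29) were not called. The LysCTT call was lost when any 1 of 4 single libraries was left out (adjusted p up to 0.073), and the GlyCCC call without liver input LFD 2 (adjusted p = 0.051). By locus, 4 of 40 tested members were higher and 21 lower, against 63.8% of all features called, and all 11 tested Glu loci were lower. chr3.tRNA748-LysCTT was higher at 82.8 ± 17.4 CPM in GAS and 47.8 ± 8.96 CPM in liver (0.85 ± 0.22, adjusted p = 0.0015), with no overlap. Lowest among loci with a mean of at least 20 counts were chr13.tRNA1013-GluCTC (-2.61 ± 0.33), chr14.tRNA352-GluTTC (-2.24 ± 0.40) and chr11.tRNA1912-GluCTC (-2.06 ± 0.27). Across plasma, VsWAT and GAS, which share the liver inputs, GlyCCC was higher than in liver and GlyTCC lower in each comparison.

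**Figure D3:**
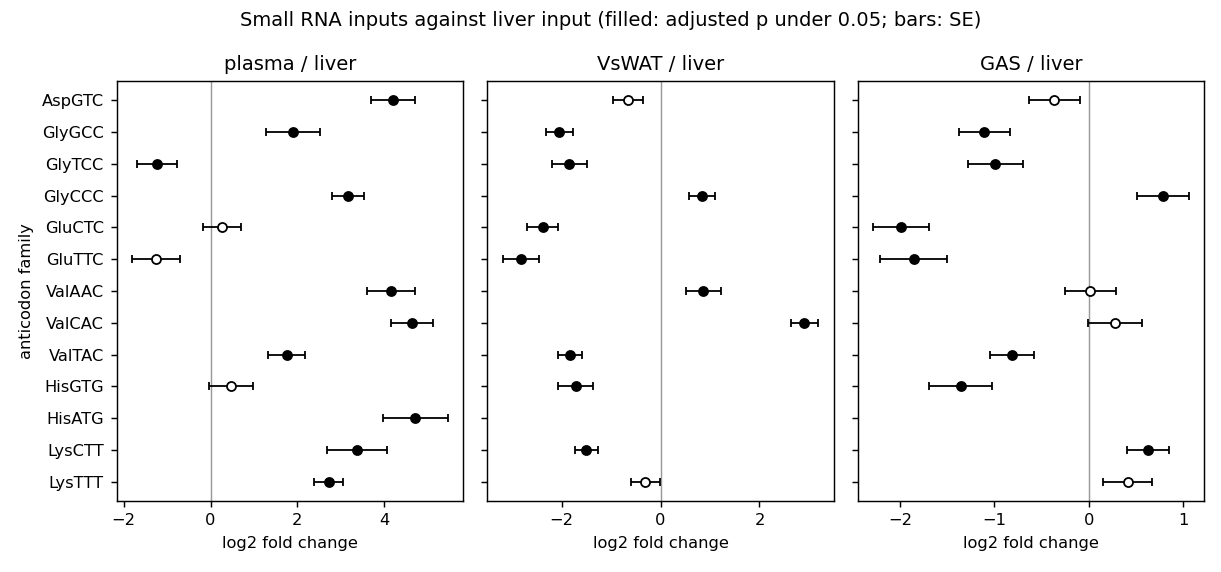
Log2 fold change of each anticodon family in plasma, VsWAT and GAS small RNA inputs over liver small RNA inputs, with SE bars, filled where the adjusted p was under 0.05. AspGTC lies at 4.19 in plasma, ValCAC at 4.63 in plasma and 2.91 in VsWAT, and the Glu families lie between -1.86 and -2.82 in VsWAT and GAS.

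The pull-down comparisons ask how the members were represented in captured RNA relative to the input of the same source, over both diets. In liver, all 11 tested families fell in the pull-down, with 54.8% of all features called in the table of anticodon sums. ValAAC averaged 9.41 ± 4.32 CPM in pull-downs and 174 ± 69.9 CPM in inputs (SD, n = 5 and 6), a log2 fold change of -5.28 ± 0.34 (adjusted p = 1.5e-09), and GlyGCC 29.1 ± 13.3 CPM in pull-downs and 394 ± 174 CPM in inputs (-4.80 ± 0.42, adjusted p = 7.3e-07). AspGTC fell by 3.23 ± 0.37, at 727 ± 395 CPM in pull-downs and 3284 ± 1119 CPM in inputs (adjusted p = 1.9e-06). None of these 3 overlapped between pull-down and input. The other families fell by 1.49 ± 0.43 for GlyTCC, 1.93 ± 0.33 for LysTTT, 2.85 ± 0.40 for GluCTC, 3.14 ± 0.32 for LysCTT, 3.30 ± 0.53 for HisGTG, 4.03 ± 0.31 for ValCAC, 4.41 ± 0.58 for GluTTC and 4.50 ± 0.30 for ValTAC. GluCTC, GlyTCC, HisGTG and LysTTT overlapped between pull-down and input, and the GlyTCC call was lost under total-count scaling.

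By locus, 1 of 38 tested members was higher in liver pull-downs and 34 were lower, against 55.5% of all features called, 27.1% higher and 28.4% lower. The median was -3.52 over members and 0.10 over all features, beside -4.17 over the tRNA loci with a long variable arm and -3.78 over the remaining tRNA loci, so that the members fell along with the other tRNAs. chr8.tRNA562-GlyGCC fell furthest among loci with a mean of at least 20 counts, at 3.59, 14.9 and 5.23 CPM under HFD and 9.58 and 18.0 CPM under LFD in pull-downs, against 140 to 553 CPM with a median of 358 CPM in inputs (-6.09 ± 0.48, adjusted p = 6.6e-07). chr13.tRNA986-ValAAC (-5.56 ± 0.34) and chr3.tRNA748-LysCTT (-4.98 ± 0.54) followed. The locus that rose was chr13.tRNA1053-LysCTT, at 6.89, 14.9 and 3.49 CPM under HFD and 18.3 and 16.4 CPM under LFD in pull-downs, against 1.13 to 4.17 CPM in inputs, with a log2 fold change of 0.99 ± 0.41 (adjusted p = 0.047). It lies outside the rule for named loci and was chosen after its values were seen. Its call was lost under DESeq2, with the replicate block and when any 1 of 7 single libraries was left out: inputs HFD 1, LFD 1, LFD 2 and LFD 3 and pull-downs HFD 2, LFD 1 and LFD 3 (adjusted p up to 0.19). Under total-count scaling the median of all features was 1.23, with 1 member higher and 34 lower.

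GAS gave a similar picture, with all 12 tested families lower in pull-downs and 54.1% of all features called. HisGTG fell by 4.62 ± 0.27, at 2.67 ± 1.49 CPM in pull-downs and 34.4 ± 5.66 CPM in inputs (SD, n = 6 each; adjusted p = 7.0e-12), and GlyGCC by 4.03 ± 0.25, at 20.6 ± 10.1 CPM in pull-downs and 168 ± 25.9 CPM in inputs (adjusted p = 2.4e-11), without overlap. LysCTT and ValTAC both fell by 3.76, ValAAC by 3.44 ± 0.91, GluTTC by 3.35 ± 0.22, GlyCCC by 2.91 ± 0.82, AspGTC by 2.84 ± 0.31, ValCAC by 2.76 ± 0.66, LysTTT by 1.78 ± 0.34, GlyTCC by 1.69 ± 0.42 and GluCTC by 1.30 ± 0.28. The GluCTC call was lost under total-count scaling. By locus, 1 of 40 tested members was higher and 35 lower, against 54.4% of all features called and 26.5% called lower, with a median of -3.03 over members and 0.06 over all features. The other tRNA loci fell as well, with medians of -3.89 over loci with a long variable arm and -4.01 over the remaining tRNA loci. Among loci with a mean of at least 20 counts, the largest falls were those of chr8.tRNA562-GlyGCC (-5.23 ± 0.23), chr3.tRNA748-LysCTT (-4.84 ± 0.24) and chr13.tRNA986-ValAAC (-3.55 ± 0.94). The largest called fall of any locus was that of chrX.tRNA643-LysCTT (-6.28 ± 0.68), under that mean. Total-count scaling moved the median of all features to 0.96, with 2 members higher and 31 lower.

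In VsWAT fewer families were called. Of 12 tested families 7 fell, with 44.4% of all features called. ValCAC fell by 2.48 ± 0.75 (154 ± 120 CPM in pull-downs and 610 ± 309 CPM in inputs), GluTTC by 2.43 ± 0.49, AspGTC by 2.00 ± 0.45 (1442 ± 860 CPM in pull-downs and 3846 ± 1257 CPM in inputs), HisGTG by 1.85 ± 0.38, ValTAC by 1.78 ± 0.66, GlyGCC by 1.71 ± 0.49 and LysCTT by 1.54 ± 0.41. All 7 overlapped between pull-down and input. GluCTC (-0.41 ± 0.45), GlyCCC (-0.91 ± 0.59), GlyTCC (0.41 ± 0.61), LysTTT (-0.34 ± 0.42) and ValAAC (-1.68 ± 0.79, adjusted p = 0.11) were not called. By locus, 1 of 58 tested members was higher and 20 were lower, against 44.5% of all features called and 23.2% called lower, with a median of -0.89 over members, 0.01 over all features and -2.22 over loci with a long variable arm. The median over the remaining tRNA loci was -1.74. Among loci with a mean of at least 20 counts, the largest falls were those of chr14.tRNA352-GluTTC (-3.80 ± 0.42), chr13.tRNA97-ValCAC (-3.23 ± 0.65) and chr3.tRNA748-LysCTT (-3.15 ± 0.52). Total-count scaling moved the median of all features to 0.64, with 7 members higher and 13 lower. Without the VsWAT inputs HFD 1, HFD 2 and LFD 1, 10 members were called, and of the 7 families HisGTG alone kept its call. The pull-downs of the same numbers, at 905, 1097 and 658 CPM of Alb against 36.8 to 100 CPM in the other 3, stayed in that fit. With those 3 pull-downs left out too, an alternative added after the data were seen, 18 members were called, all lower, and all 7 families kept their calls with larger falls, ValCAC by 3.73 ± 0.59, GluTTC by 3.32 ± 0.47 and AspGTC by 2.63 ± 0.37. The ValTAC call (adjusted p = 0.0497) was lost when any 1 of 11 single libraries was left out, and the ValCAC call without pull-down LFD 1 (adjusted p = 0.057).

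One locus went the other way in both VsWAT and GAS. chr2.tRNA511-AspGTC held 12.1, 31.1 and 0 CPM under HFD and 31.8, 20.6 and 16.3 CPM under LFD in VsWAT pull-downs, against 0.712, 3.40 and 0.936 CPM under HFD and 3.60, 1.64 and 0.812 CPM under LFD in VsWAT inputs (2.64 ± 0.79, adjusted p = 0.016). The pull-down HFD 3, at 0, lay below every VsWAT input, while the other 5 lay above them all. In GAS it ranged from 1.51 to 20.7 CPM with a median of 4.83 CPM in pull-downs and from 0 to 1.84 CPM with a median of 0.216 CPM in inputs (2.83 ± 0.76, adjusted p = 0.0036). Its mean in GAS was under 20 counts, outside the rule for named loci. Aqr, the gene this locus lies in, changed by 0.24 ± 0.19 in VsWAT and 0.15 ± 0.26 in GAS and was not called in either. The VsWAT call was lost without the 3 VsWAT inputs that stand apart, and without them and their pull-downs (2.61 ± 0.89, adjusted p = 0.062). In GAS the locus did not pass the filter on low counts without pull-down LFD 2, so its call rests on that library being present. The strand setting of the counting is not given in the sources used here.

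In plasma pull-downs, 4 of 13 tested families were lower than in inputs, with 3.88% of all features called. LysCTT averaged 56.6 ± 82.4 CPM in pull-downs and 327 ± 289 CPM in inputs (SD, n = 4 each), a log2 fold change of -6.35 ± 1.20 (adjusted p = 2.1e-05), and ValCAC 62.3 ± 65.5 CPM in pull-downs and 394 ± 225 CPM in inputs (-4.75 ± 0.99, adjusted p = 0.00019). LysTTT had 1 count over the 4 pull-downs and 105 over the 4 inputs, and no fold is given. AspGTC fell by 2.71 ± 0.52, at 15456 ± 6581 CPM in pull-downs and 25541 ± 6957 CPM in inputs (adjusted p = 2.5e-05), with overlap. GluCTC was at 607 ± 301 CPM in pull-downs and 172 ± 41.4 CPM in inputs, without overlap, while its fold change after TMM scaling was -0.18 ± 0.90 and was not called. By locus, 0 of 28 tested members were higher and 7 lower, against 3.92% of all features called and 2.91% called lower, with a median of -2.36 over members and 0.10 over all features. Medians were -2.17 over loci with a long variable arm and -1.10 over the remaining tRNA loci. chr13.tRNA98-ValCAC had 1 count over the pull-downs and 463 over the inputs, and chrX.tRNA643-LysCTT 2 and 171. chr3.tRNA748-LysCTT was at 0, 0, 0 and 167 CPM in the pull-downs and 12.2, 243, 392 and 12.6 CPM in the inputs (-6.04 ± 1.46, adjusted p = 0.003).

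The plasma falls depended on the scaling. Total-count scaling moved the median of all features in plasma to 2.18 and left 1 member called, chr13.tRNA98-ValCAC, and AspGTC then changed by -0.62 and was not called, nor were the other 3 families. The LysCTT and ValCAC calls were also lost without plasma input LFD 1 (adjusted p = 0.14 and 0.060), and the LysTTT call when any 1 of 6 single libraries was left out. By locus, the chr3.tRNA748-LysCTT call was lost without plasma input HFD 2 or LFD 1 or pull-down HFD 1 (adjusted p up to 0.63), and that of chrX.tRNA643-LysCTT without either of those inputs (adjusted p up to 0.96).

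**Figure D4:**
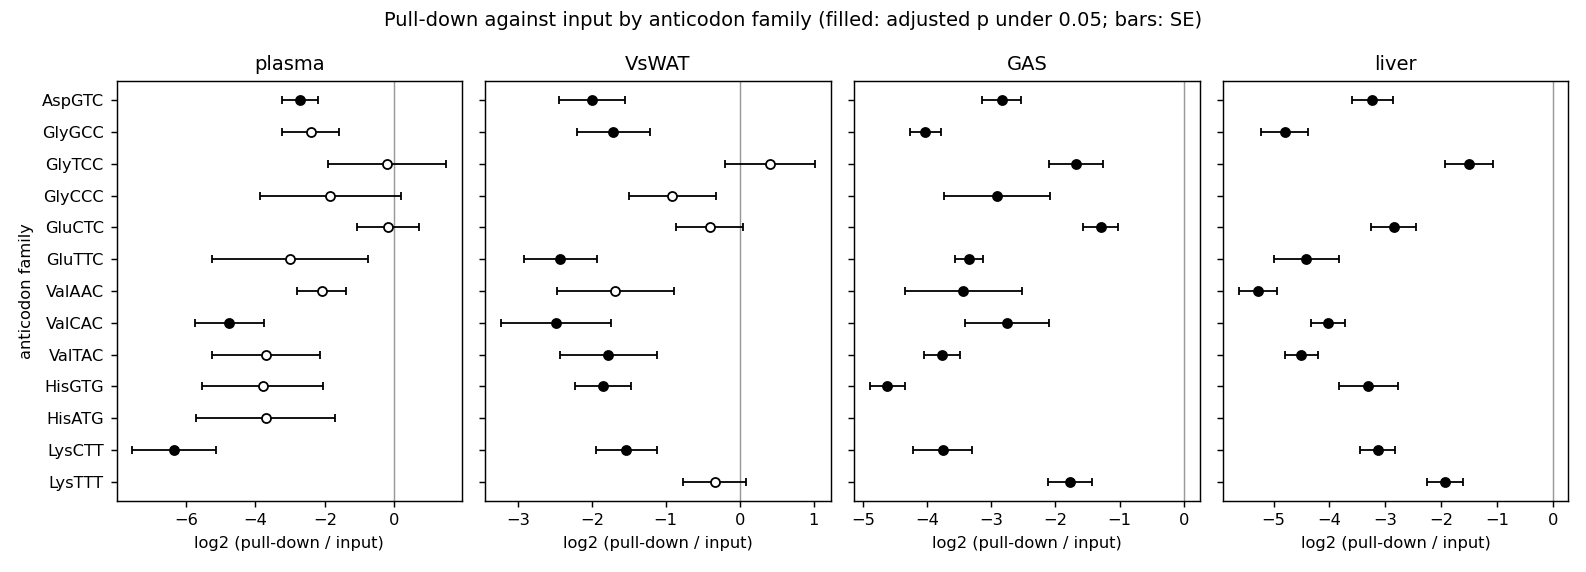
Log2 fold change of each anticodon family in pull-down over input libraries of plasma, VsWAT, GAS and liver small RNA, with SE bars, filled where the adjusted p was under 0.05. Every family tested in GAS and liver lies below 0, from -1.30 to -4.62 in GAS and from -1.49 to -5.28 in liver, while 5 of 12 in VsWAT and 9 of 13 in plasma were not called. LysTTT of plasma, with 1 count in the pull-downs, is not drawn.

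The pull-down fold changes were compared between sources by the interaction of source and pull-down, with liver as the reference of all 3 differences. In VsWAT against liver, GlyGCC (3.01 ± 0.65, adjusted p = 0.0072), ValAAC (3.51 ± 0.95, adjusted p = 0.029) and GluCTC (2.35 ± 0.61, adjusted p = 0.023) were less depleted, 3 of 12 families with 7.77% of all features called. By locus, 10 of 59 tested members were higher and 0 lower, against 7.89% of all features called, with medians of 2.23 over members, 2.45 over loci with a long variable arm and 0.06 over all features. Largest among loci with a mean of at least 20 counts were chr11.tRNA397-AspGTC (4.15 ± 0.91), chr13.tRNA986-ValAAC (3.73 ± 0.97) and chr8.tRNA562-GlyGCC (3.02 ± 0.71). Without the VsWAT inputs that stand apart 5 loci were called and the 3 family calls were lost. Without them and the pull-downs of the same numbers 2 loci were called, chr11.tRNA397-AspGTC and chr13.tRNA986-ValAAC, and of the families ValAAC alone kept its call (2.47 ± 0.61, adjusted p = 0.031). The ValAAC call was also lost when any 1 of 8 single libraries was left out (adjusted p up to 0.079), and the GluCTC call without any 1 of 3 (liver input HFD 3 and liver pull-downs LFD 1 and LFD 3, adjusted p up to 0.063). In GAS against liver, GluCTC was less depleted (1.53 ± 0.48, adjusted p = 0.034), 1 of 12 families with 14.6% of all features called. By locus, 3 of 45 tested members were higher and 1 lower, against 14.4% of all features called. Among loci with a mean of at least 20 counts, chr17.tRNA719-GluCTC led with 3.16 ± 0.81 (adjusted p = 0.011), ahead of chr10.tRNA90-GluCTC (1.78 ± 0.53). The largest called rise, 3.85, was that of a locus under that mean. The locus that was lower was chr2.tRNA1432-HisGTG (-2.48, adjusted p = 0.043), a call lost when any 1 of 16 single libraries was left out. Its mean was under 20 counts, outside the rule for named loci. The GluCTC call was lost when any 1 of 12 single libraries was left out (adjusted p up to 0.091).

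In plasma against liver, 0 of 52 tested members were higher and 9 lower, against 26.2% of all features called, with medians of -0.77 over members and -1.35 over all features. Loci with a long variable arm had a median of 1.28, with 5 of 33 higher and 1 lower. The remaining tRNA loci had a median of 1.12, with 13 of 79 higher and 4 lower. LysCTT (-3.94 ± 1.43, adjusted p = 0.0498) and LysTTT (adjusted p = 0.00024) were more depleted, 2 of 13 families with 26.1% of all features called. LysTTT had 1 count in the plasma pull-downs, and no fold is given. chr3.tRNA746-GlyTCC was lower too (-3.58 ± 1.25, adjusted p = 0.041), a call lost under 17 of 24 alternatives. Under total-count scaling the median of all features was 0.16, with 6 members higher and 2 lower, so the balance of directions depended on the scaling. The LysCTT call was lost under 20 of 24 alternatives.

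Diet was compared within each set of inputs and of pull-downs. In VsWAT inputs 1 of 31 tested members was called, against 0.213% of all features. chr3.tRNA752-GlyCCC held 28.5, 30.6 and 30.9 CPM under HFD and 11.3, 13.9 and 9.75 CPM under LFD, without overlap (1.32 ± 0.24, adjusted p = 0.041). Its family GlyCCC was at 32.4 ± 1.61 CPM under HFD and 14.3 ± 3.74 CPM under LFD (SD, n = 3 each; 1.13 ± 0.23, adjusted p = 0.077). The call was lost with the near-identical libraries HFD 1 and HFD 2 summed, with the replicate block, with a dispersion from all 4 groups, without the inputs that stand apart, and when any 1 of 5 single libraries was left out (adjusted p up to 0.15).

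ValAAC and ValCAC of VsWAT inputs were lower under HFD in every library, but were not called by edgeR. ValAAC held 428, 419 and 138 CPM under HFD and 1529, 775 and 753 CPM under LFD (-1.73 ± 0.41, adjusted p = 0.20), and ValCAC 458, 416 and 202 CPM under HFD and 1067, 760 and 756 CPM under LFD (-1.35 ± 0.26, adjusted p = 0.057). DESeq2 called both (adjusted p = 6.7e-05 and 7.4e-05), along with GluTTC (0.99 ± 0.30, adjusted p = 0.049), which was at 111 ± 39.8 CPM under HFD and 53.3 ± 17.6 CPM under LFD. By locus DESeq2 called chr13.tRNA986-ValAAC (-1.71), chr13.tRNA98-ValCAC (-1.57), chr17.tRNA391-ValCAC (-1.47) and chr13.tRNA97-ValCAC (-0.85). With the near-identical libraries summed no member was called and ValCAC had an adjusted p of 0.21. Without the 3 inputs that stand apart edgeR called ValAAC (-2.42 ± 0.49, adjusted p = 0.025) and 4 Val loci, the lone HFD library being assumed to vary like the others. All nuclear tRNA was lower under HFD in these inputs, at 37079, 35399 and 25259 CPM under HFD and 60728, 50543 and 49007 CPM under LFD, without overlap. The median change was -0.58 over loci with a long variable arm, -0.37 over the remaining tRNA loci and 0.31 over members. In that order, 14 of 30, 19 of 56 and 12 of 31 had an unadjusted p under 0.05, against 750 of 7987 features tested. The part of this shift in the Val values was not tested. In VsWAT pull-downs ValAAC held 584, 285 and 24.4 CPM under HFD and 286, 418 and 71.3 CPM under LFD, which overlap, and 0 of 47 members were called, against 0.103% of all features.

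In GAS ValCAC was lower under HFD in every library of both fractions. ValCAC held 45.7, 6.84 and 24.7 CPM under HFD and 47.5, 75.2 and 128 CPM under LFD in inputs (-1.47 ± 0.45, adjusted p = 0.46), and 4.97, 1.51 and 3.62 CPM under HFD and 6.48, 20.2 and 69.4 CPM under LFD in pull-downs (-3.19 ± 0.98, adjusted p = 0.36). Neither fraction overlapped between the diets, and neither was called. Other families were without overlap too, ValTAC in inputs, and AspGTC, GlyGCC, LysCTT and ValAAC in pull-downs, and edgeR called none of them. The share of all features without overlap is not given here, so nothing is concluded from the lack of overlap. All nuclear tRNA of GAS overlapped between the diets in inputs. In pull-downs it was lower under HFD, at 1328 to 1817 CPM under HFD and 2303 to 6429 CPM under LFD, without overlap. The part of this difference in the Val values was not tested. In GAS inputs chr13.tRNA98-ValCAC held 10.1, 3.42 and 5.89 CPM under HFD and 16.0, 33.2 and 68.8 CPM under LFD (-2.27 ± 0.48, adjusted p = 0.088), and chr13.tRNA95-ValAAC 4.65, 1.14 and 3.53 CPM under HFD and 9.93, 27.4 and 64.2 CPM under LFD (-3.06 ± 0.77, adjusted p = 0.36). DESeq2 called both loci (adjusted p = 0.013 and 0.0044). In GAS pull-downs chr10.tRNA866-AspGTC was at 515, 307 and 360 CPM under HFD and 529, 671 and 1628 CPM under LFD (-1.25 ± 0.42, adjusted p = 0.35), and ValAAC at 4.98 ± 3.15 CPM under HFD and 98.7 ± 120 CPM under LFD (-4.31 ± 1.36, adjusted p = 0.47). DESeq2 called both (adjusted p = 0.028 and 0.011). Under edgeR 0 of 23 tested members in GAS inputs and 0 of 11 in GAS pull-downs were called, against 0.276% and 0.718% of all features, with 2 and 4 of them at an unadjusted p under 0.05. Over all features, 397 of 5072 in GAS inputs and 821 of 9058 in GAS pull-downs had such a p. The median change in GAS pull-downs was -1.18 over members, -1.58 over loci with a long variable arm, -1.31 over the remaining tRNA loci and 0.01 over all features.

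**Figure D5:**
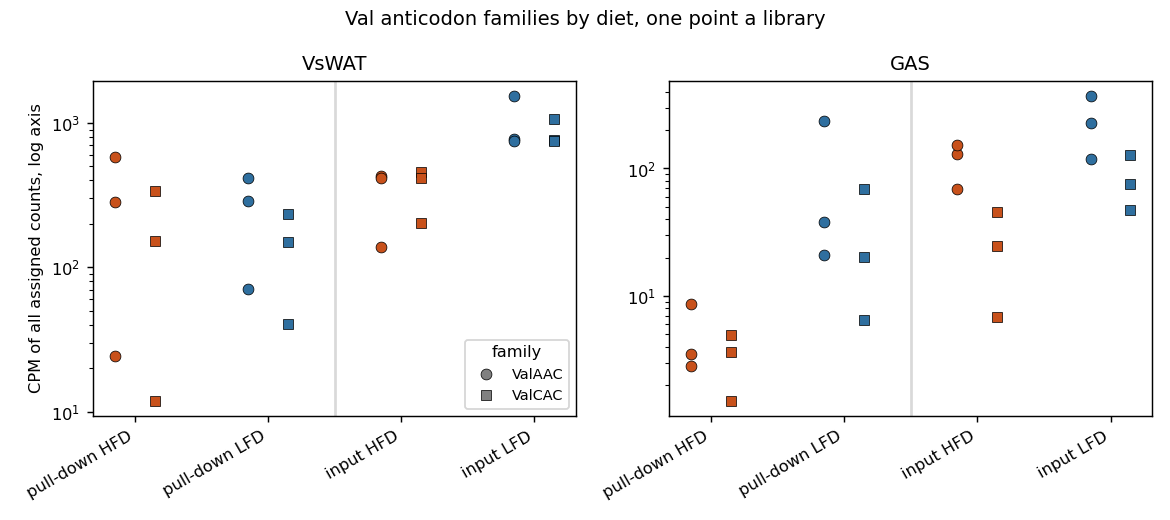
Levels of the ValAAC and ValCAC families in VsWAT and GAS small RNA, in CPM of all assigned counts on a log axis, one point a library, by fraction and diet. VsWAT inputs under HFD (138 to 458 CPM) lie below those under LFD (753 to 1529 CPM), while the pull-downs of VsWAT overlap between the diets.

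No diet difference was called in the other small RNA sets. In liver, 0 of 31 tested members were called in inputs and 0 of 22 in pull-downs by edgeR and by DESeq2, with 1 member in each at an unadjusted p under 0.05, against 0.111% and 0.0545% of all features called. An unadjusted p under 0.05 was held by 508 of 5421 features in inputs and 825 of 9167 in pull-downs. The smallest p in liver inputs were those of chr3.tRNA745-GluCTC, at 11.2 ± 2.14 CPM under HFD and 5.23 ± 0.50 CPM under LFD (1.37 ± 0.37, adjusted p = 0.18), and chr1.tRNA1400-GlyGCC (-0.91 ± 0.48). In liver pull-downs they were those of chr3.tRNA748-LysCTT (-2.36 ± 0.94, adjusted p = 0.48) and chr3.tRNA745-GluCTC (1.46 ± 0.81). In plasma, where the groups hold 2 libraries each and the counts are lowest, a count of 0 does not show that the diets did not differ. There 0 of 22 members in inputs and 0 of 11 in pull-downs were called by either tool, with 1 and 0 at an unadjusted p under 0.05, against 0.0% of all features called in both. Such a p was held by 8 of 1197 features in plasma inputs and 15 of 2590 in plasma pull-downs. chr1.tRNA717-HisATG, at 5.76 ± 3.82 CPM under HFD and 47.0 ± 35.4 CPM under LFD (SD, n = 2 each), had the smallest p in plasma inputs (-2.40 ± 0.78, adjusted p = 1.00). The interaction of diet and pull-down called no member in any small RNA set by edgeR, where 0.0% of all features were called, and its smallest p was that of chr1.tRNA485-LysTTT in GAS (-3.15 ± 1.10, adjusted p = 1.00).

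The mRNA libraries hold few reads of these loci. Each had 1 to 37 counts over all 130 members, at most 0.000791% of its assigned counts, and no member passed the filter on low counts in any comparison of liver or kidney mRNA. They do measure the genes that make, modify and cut tRNAs. Some liver mRNA inputs were near-identical to each other, and the gene results below keep them as separate libraries. Gene calls with them summed are not given here. In liver mRNA, 4 of 5 tested nuclease genes were lower in pull-downs than in inputs and 1 was higher, with 71.6% of all features called. Ang, which encodes the tRNA-cleaving angiogenin, fell by 2.03 ± 0.23 and Rnh1, its inhibitor, by 1.16 ± 0.16, while Dicer1 rose by 0.93 ± 0.16. Of 6 synthetase genes that charge these isotypes 4 were lower and 1 higher, with Kars at -1.02 ± 0.12 and Gars at -0.63 ± 0.12. Modification enzymes had 10 of 25 higher and 1 lower (Alkbh8, a wobble uridine methyltransferase, 1.67 ± 0.14, and Qtrt2 of the queuosine-inserting enzyme, 1.59 ± 0.17), and end processing genes 5 of 19 higher and 6 lower (Clp1 1.66 ± 0.14, and the RNase P subunit Rpp21 -1.89 ± 0.35). Of 22 genes of RNA polymerase III transcription, which transcribes tRNA genes, 11 were higher and 3 lower (Tbp 1.58 ± 0.14, and the TFIIIB subunit Bdp1 1.88 ± 0.17). The modification, end processing and polymerase III lists had smaller shares called than all features.

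Kidney mRNA gave like counts, with 53.2% of all features called. Ang (-2.83 ± 0.37) and Rnaset2a (-2.94 ± 0.34) fell among 3 lower and 1 higher of 6 nuclease genes, and 4 of 6 synthetase genes were lower (Kars -1.10 ± 0.22, Gars -0.72 ± 0.16). Polymerase III genes had 10 of 23 higher and 3 lower, and Bdp1 rose by 1.65 ± 0.19. In small RNA pull-downs, 21.3% of all features were called higher in VsWAT, 27.9% in GAS and 27.1% in liver. Against these shares polymerase III genes had 7 of 22 higher in VsWAT, 5 of 21 in GAS and 8 of 19 in liver with 1 lower there, and modification enzymes had 6 of 22, 7 of 16 and 7 of 15 higher with none lower. Alkbh8 rose in each of the 3 tissues, by 1.35 ± 0.23 in VsWAT, 1.54 ± 0.27 in GAS and 1.48 ± 0.21 in liver. In plasma pull-downs against inputs no gene of these lists was called, with 1 to 4 of each list tested. No diet comparison of small RNA called any of them. Plasma against liver inputs did call some, among them Ang as lower and Gtf3c1 as higher (edgeR, adjusted p = 2.2e-07 and 0.018).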

How the data were processed

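Per the submitters' processing notes, the authors used STAR, HTSeq and the mm10 build, with no versions given there, and deposited raw read counts per feature, 1 library a file. The strand setting, trimming and treatment of multiply aligned reads are not given in the sources used here. Of the 77 libraries, the 12 of VsWAT and GAS total RNA list no nuclear tRNA locus and were not used here.

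From these counts, all 55273 features were tested in R 4.3.3 with edgeR 4.0.16 (robust quasi-likelihood F-test, 2-sided, scaled by TMM, with low features dropped by filterByExpr at 10 counts), with Benjamini-Hochberg adjustment over all features tested and a threshold of 0.05. The same was done on a table in which nuclear tRNA loci were summed by anticodon. SEs were derived from each log2 fold change and its F statistic. The 31 comparisons were pull-down against input in 6 sets, HFD against LFD in 12, the interaction of diet and pull-down in 6, 4 between sources and 3 differences in pull-down enrichment. In 9 of them, all of mRNA, no member passed the filter. Groups were taken from the labels. A group with 1 to 3 counts gets no fold in the comparisons. A floor of 3 counts stands for a group at 0, and covers counting error only.

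All families are named. Loci are named by rule: the 2 with the highest mean input CPM of each isotype, the 3 largest called changes each way with a mean of at least 20 counts, or, where none was called, the 2 smallest p. Genes of other lists are named by smallest p. The members and lists were chosen with earlier results of these data known. As alternatives, DESeq2 1.42.0 was run. Scaling was changed to DESeq2-type factors or to total counts, the filter was dropped, dispersion was estimated over all 4 groups, replicate blocks were added, near-identical libraries were summed, and libraries were left out singly or where they stand apart (in VsWAT also with their pull-downs, added after the data were seen). The fits were tested on simulated data, where the changes put into plasma counts were not recovered for pull-down against input or for diet in inputs. The numbers were held to pair libraries only if every one of at least 3 pairs deviated together (correlation over 0.1). This held for pull-down with input of GAS small RNA (0.223 to 0.441) and for the diets in liver mRNA pull-downs (0.158 to 0.171).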

Additional observations from a re-analysis of the deposited data

Results flagged for a closer look

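The differences in pull-down fold change between sources, tested by the interaction term of edgeR's quasi-likelihood test with Benjamini-Hochberg adjustment, named 6 family results. Relative to liver, VsWAT gave 3.51 for ValAAC, 3.01 for GlyGCC and 2.35 for GluCTC, on the log2 scale. GAS gave 1.53 for GluCTC. Plasma gave -3.94 for LysCTT and -6.36 for LysTTT, the second a fitted value that rests on 1 count over the plasma pull-downs, depends on the prior count and is no measure of size. All 6 share the liver libraries.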

How the results depend on the processing

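Over 175 fold changes of families and loci and 2992 alternatives, 2702 kept their direction and side of the threshold, 254 lost the call, 14 gained it and 22 changed sign. Counts of called members that moved by over 1.5 times were as follows. Without the filter on low counts, they were 68 in liver pull-down against input, 55 in GAS, 2 in plasma and 3 in liver mRNA, 7, 2 and 4 for diet in VsWAT inputs, GAS inputs and GAS pull-downs, 1 for diet in kidney mRNA inputs, 60 in VsWAT against liver, 27 in the VsWAT minus liver difference, 7 in the GAS minus liver difference and 1 in kidney against liver mRNA. More loci were tested there. With DESeq2 they were 4, 2 and 2 for diet in VsWAT inputs, GAS inputs and GAS pull-downs and 22 in the VsWAT minus liver difference. With the replicate block they were 2 for diet in GAS inputs, 4 in plasma pull-down against input, 5 in the plasma minus liver difference and 17 in the VsWAT minus liver difference. In the paired GAS pull-down comparison the block called 37 members, against 36 without it, and changed no family call. Total-count scaling left 1 in plasma pull-down against input. A dispersion from all 4 groups or summed near-identical libraries left 0 for diet in VsWAT inputs. Without libraries that stand apart they were 10 in VsWAT pull-down against input, 4 for diet in VsWAT inputs (the lone HFD library assumed to vary like the others), 5 in the VsWAT minus liver difference and 1 for diet in kidney mRNA inputs. With the VsWAT pull-downs of the same numbers left out as well, added after the data were seen, the VsWAT minus liver difference had 2. The cause of these shifts was not tested.

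Leaving out 1 library at a time gave 31 to 41 called members in liver pull-down against input, 34 to 41 in GAS, 16 to 27 in VsWAT, 2 to 10 in plasma, 31 to 36 in plasma against liver, 33 to 36 in VsWAT against liver, 24 to 29 in GAS against liver, 5 to 27, 1 to 8 and 5 to 12 in the VsWAT, GAS and plasma minus liver differences, and for diet 0 to 4 in VsWAT inputs, 0 to 2 in GAS inputs, 0 to 1 in GAS pull-downs and 0 to 5 in plasma inputs. Some uncalled families, such as GluCTC in pull-down against input of plasma and VsWAT, differed in direction between levels in CPM and TMM-scaled changes. The 22 sign changes counted above were all in diet fold changes that were not called. With the block, AspGTC, ValAAC and ValCAC were at -0.13, -0.35 and -0.33 in VsWAT pull-downs, and without pull-downs HFD 1, HFD 2 and LFD 1, which leaves 1 HFD library, at -2.06, -3.35 and -3.54. Leaving out 1 library, they ranged there from -0.48 to 0.86, -0.77 to 0.86 (-0.11 in between) and -0.82 to 0.90 (-0.06 in between). In plasma inputs they ranged from -0.0325 to 0.99 (-0.0095 in between), -1.89 to 1.12 (0.18 in between) and -1.48 to 1.09, in plasma pull-downs from -0.45 to 1.10, -3.00 to 0.27 (0.24 in between) and -7.47 to 2.28 (1.02 in between), and ValAAC in liver pull-downs from -1.32 to 0.0070. Pairing plasma inputs by crossed numbers, added after the data were seen (their deviations correlated at -0.517), called 0 members, as did the same numbers. Depth limits plasma most, where pull-downs held 18 to 38 members with a count.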
